A study of Homo sapiens with 12 samples.

Results

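The 6 genes described are the FOS family members FOS, FOSB and FOSL2 and the JUN family members JUN, JUNB and JUND, which encode subunits of the transcription factor AP-1. They were chosen by gene symbol and make up 6 of the 14232 genes measured, and each was read by 1 probe set that carries its symbol alone. The samples were 12 cultures of CCRF-CEM, an established human T-lymphoblastic leukaemia cell line, labelled as 3 biological replicates in each of 4 groups. The untreated group, called control in what follows, received no agent, and no vehicle is described for it, so a vehicle and a compound cannot be told apart. The other groups were treated for 3 h with AB61 at 250 nM, with tubercidin at 550 nM or with actinomycin D at 1 nM, which per the labels is 5 times the IC50 of each compound. All cultures grew in RPMI medium with 10% serum. Tubercidin is 7-deazaadenosine, a cytostatic analog of the nucleoside adenosine, and AB61 is the same molecule with a 2-thienyl group at position 7. Actinomycin D binds DNA and inhibits transcription, and how far it did so at 1 nM was not measured here.

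AP-1 is a dimer of basic leucine zipper proteins. JUN proteins pair with each other or with FOS proteins, FOS proteins need a JUN partner, and the dimer binds short sites in promoters and enhancers. FOS, FOSB, JUN and JUNB are immediate early genes: serum, growth factors and stress switch them on within minutes without new protein synthesis, and their short-lived mRNAs are soon lost once transcription stops. In T cells AP-1 forms part of the response to the antigen receptor and acts with NFAT on cytokine genes.

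The promoter windows are shown first because the 6 genes are defined as one family and 5 of them carry a match to a site bound by AP-1, CREB or ATF proteins. All 6 genes were matched by symbol to RefSeq promoter windows on GRCh38.p14, each from 250 bases before the annotated start to 50 after it, printed 5′ to 3′ on the strand of the gene. The whole window is given for FOSL2, the gene with the largest difference between control and treated cells, with its matches in capitals. It lies at chr2:28392608-28392907 on the plus strand.

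FOSL2 promoter: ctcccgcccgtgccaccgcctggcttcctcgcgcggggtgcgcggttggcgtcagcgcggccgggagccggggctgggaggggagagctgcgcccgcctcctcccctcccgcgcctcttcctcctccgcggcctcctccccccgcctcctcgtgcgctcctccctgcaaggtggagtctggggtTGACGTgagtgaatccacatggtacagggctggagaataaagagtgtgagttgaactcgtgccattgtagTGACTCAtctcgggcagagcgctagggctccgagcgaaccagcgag

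Both strands were searched for the AP-1 site TGANTCA, for TGACNTCA (the cyclic AMP response element, CRE, and the variant known from the JUN promoter), for the CRE core TGACGT, and for the CArG box, the core of the serum response element. The core TGACGT lies within the full CRE TGACGTCA, so a full CRE counts under both. The windows around single matches below show where each gene's site sits, with the match in capitals. They lie at chr14:75278752-75278781 (FOS, plus strand), chr19:45467924-45467953 (FOSB, plus), chr1:58784097-58784126 (JUN, minus), and chr19:18281805-18281834 and chr19:18281692-18281721 (JUND, minus).

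FOS CRE core: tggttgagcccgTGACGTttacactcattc
FOSB CRE core: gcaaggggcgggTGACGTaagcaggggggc
JUN CRE variant: aaggccttggggTGACATCAtgggctattt
JUND full CRE: cggccgcccccaTGACGTCAacccacaagg
JUND CRE core on the opposite strand: tgcaaatgagcgACGTCAcccgcacccaat

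The CRE core was present in 4 of the 6 windows, those of FOS, FOSB, FOSL2 and JUND, against 7.98% of all 35116 RefSeq promoter windows of that length. Its first base lay 64 bases before the start in FOS, 60 before it in FOSB and 66 before it in FOSL2. TGACNTCA was found in 2 of 6, as TGACATCA 67 bases before the JUN start and as the full CRE 200 bases before the JUND start (7.72% of all windows). The AP-1 site was found in FOSL2 alone, as TGACTCA beginning 5 bases after the start (7.71% of all windows). None of the 6 windows held a CArG box (1.29% of all windows), and the JUNB window held none of these motifs. The windows reach only 250 bases before the start, so a site farther upstream would not be seen. A match describes the letters of the window and does not show binding.

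**Figure D1:**
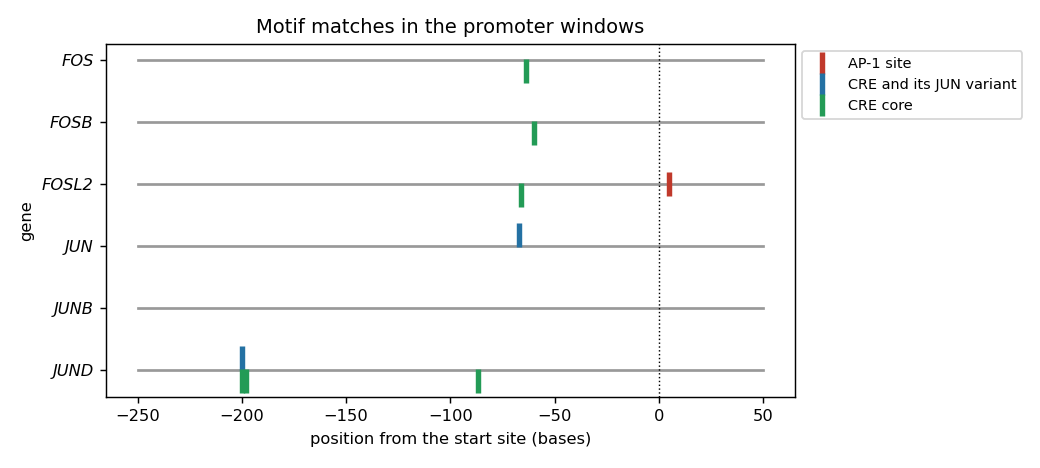
Matches to the 3 motifs that were found (coloured marks) in the promoter windows of the 6 genes; the horizontal axis gives the position in bases from the annotated start, and marks above or below a line are offset only so that they can be told apart. Matches in FOS, FOSB, FOSL2 and JUN fall between 60 and 67 bases before the start, FOSL2 has a further match 5 bases after it, JUND has matches 200 and 87 bases before it, and JUNB has none.

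Levels are log2 RMA values, in which a difference of 1 is a factor of 2. The array medians lay between 6.58 and 6.72, and correlations between arrays between 0.983 and 0.996. The T-cell identity of the cultures was checked on 17 T-lymphoblast markers, of which 15 lay above the array median on all 3 control arrays. Of 13 measured markers of B cells, myeloid, erythroid, endothelial, stromal and epithelial cells, 2 did. The mean level of the T-lymphoblast list lay between 8.96 and 9.07 on the control arrays and between 8.91 and 9.16 on the treated ones, and that of the other list between 5.82 and 5.95 on the control arrays and between 5.74 and 6.07 on the treated ones. No gene of either list passed the test in any treatment. In bulk RNA, fewer cells that express a gene and less RNA per cell cannot be told apart.

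FOSL2, which encodes the subunit also called FRA-2, fell in each of the 3 treatments. Its log2 levels were 8.83, 9.44 and 9.58 in control replicates 1, 2 and 3. They were 7.97, 7.75 and 7.92 with AB61, 7.62, 7.98 and 8.03 with tubercidin, and 7.78, 7.93 and 8.03 with actinomycin D. All 9 treated arrays lay below all 3 control arrays, with a gap of 0.80 between the lowest control array and the highest treated one. Over all genes tested, 1.9% had all 9 treated arrays below all 3 controls.

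The fitted FOSL2 difference was -1.40 with AB61 (SE 0.18, limma adjusted p = 0.0166), a level lower by 2.65-fold (95% interval 2.03 to 3.44). With tubercidin it was -1.40 (adjusted p = 0.00826), and with actinomycin D -1.37 (adjusted p = 0.0146), a level lower by 2.58-fold (1.98 to 3.36). Among the 14232 genes, FOSL2 was the 4th lowest with AB61, the 5th lowest with tubercidin and the 6th lowest with actinomycin D. The mean of the 3 treatments minus control was -1.39 (SE 0.14, adjusted p = 0.00189). The calls in single treatments ended without control replicate 2 or 3 (adjusted p 0.0535 to 0.152), without AB61 replicate 1 or 2 for AB61 (0.0504 and 0.0751), without tubercidin replicate 1 for tubercidin (0.0559) and without actinomycin D replicate 1 or 2 for actinomycin D (0.0874 and 0.104), while the call on the mean of the treatments was kept in all 12 such fits. They also ended in all 3 treatments when only the 2 groups compared were fitted (adjusted p 0.101 to 0.172), and with AB61 and actinomycin D when arrays were centred on ribosomal protein genes (differences of -1.26 in both, where the medians of all genes were 0.18 and 0.11, adjusted p = 0.0642 and 0.132) or when every probe set was tested (0.0637 and 0.0755). With AB61, 0 of all genes passed without control replicate 2 or 3 or AB61 replicate 1 or 2. The fit of all 12 arrays called 13 higher and 11 lower. For actinomycin D 1 gene, called higher, passed without control replicate 2 or 3 or its own replicate 1 or 2. For tubercidin 2, 3 and 3 were called higher and 0, 0 and 1 lower without control replicate 2, 3 or tubercidin replicate 1. With only the 2 groups compared, 0, 1 and 1 genes passed with AB61, tubercidin and actinomycin D.

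In the authors' deposited tables, FOSL2 had unadjusted p-values of 4.86e-06 with AB61, 4.85e-06 with tubercidin and 6.44e-06 with actinomycin D. These were the 3rd, 2nd and 3rd smallest of 22011 probe sets in the authors' deposited tables. Adjusted here by Benjamini-Hochberg over those probe sets, the authors' limma p-values gave 0.0356, 0.0281 and 0.0410 in the same order. None of the other subunit genes passed in this way. Which arrays entered the authors' fit is not stated in what is used here. The log2 fold changes of the 6 genes in the authors' deposited tables equal the differences given here to the 2 decimals printed.

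FOSB, a FOS family member known for a stable truncated form that builds up under repeated stimulation, did not pass the test in any single treatment. Its levels in control replicates 1, 2 and 3 were 7.04, 7.85 and 8.24. They were 6.76, 7.16 and 6.93 with AB61, 6.80, 6.69 and 7.01 with tubercidin, and 6.90, 6.79 and 6.76 with actinomycin D. Control replicates 2 and 3 lay above all treated arrays, and 8 of the 9 treated arrays lay below control replicate 1, the exception being AB61 replicate 2.

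The FOSB difference from control was -0.76 with AB61 (SE 0.23, limma adjusted p = 0.203), -0.88 with tubercidin (adjusted p = 0.190) and -0.90 with actinomycin D (adjusted p = 0.183). Averaged over the treatments it was -0.85 (SE 0.19, adjusted p = 0.0520). Without control replicate 1, the lowest of the control arrays, FOSB passed in each treatment, with -1.10 (adjusted p = 0.0332), -1.21 (0.0113) and -1.23 (0.0112) in the same order, and on the mean of the treatments (-1.18, adjusted p = 0.00334). Without control replicate 3, the highest, that mean was -0.58 (adjusted p = 0.201).

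FOS, the founding subunit of the family and a classic marker of recent stimulation, lay at 6.43, 6.80 and 7.16 in control replicates 1, 2 and 3. It lay at 6.41, 6.52 and 6.37 with AB61, at 6.27, 6.50 and 6.42 with tubercidin, and at 6.32, 6.40 and 6.42 with actinomycin D. Its 9 treated levels spanned 0.25, against 0.73 among the 3 controls, and 7 of the 9 lay below control replicate 1. The differences of -0.37, -0.40 and -0.42 (SE 0.15) had limma adjusted p-values of 0.350, 0.405 and 0.374 for AB61, tubercidin and actinomycin D. Averaged over the treatments FOS stood at -0.40 (adjusted p = 0.149), and this became -0.58 and passed without control replicate 1 (adjusted p = 0.0380) and -0.21 without control replicate 3 (adjusted p = 0.476).

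**Figure D2:**
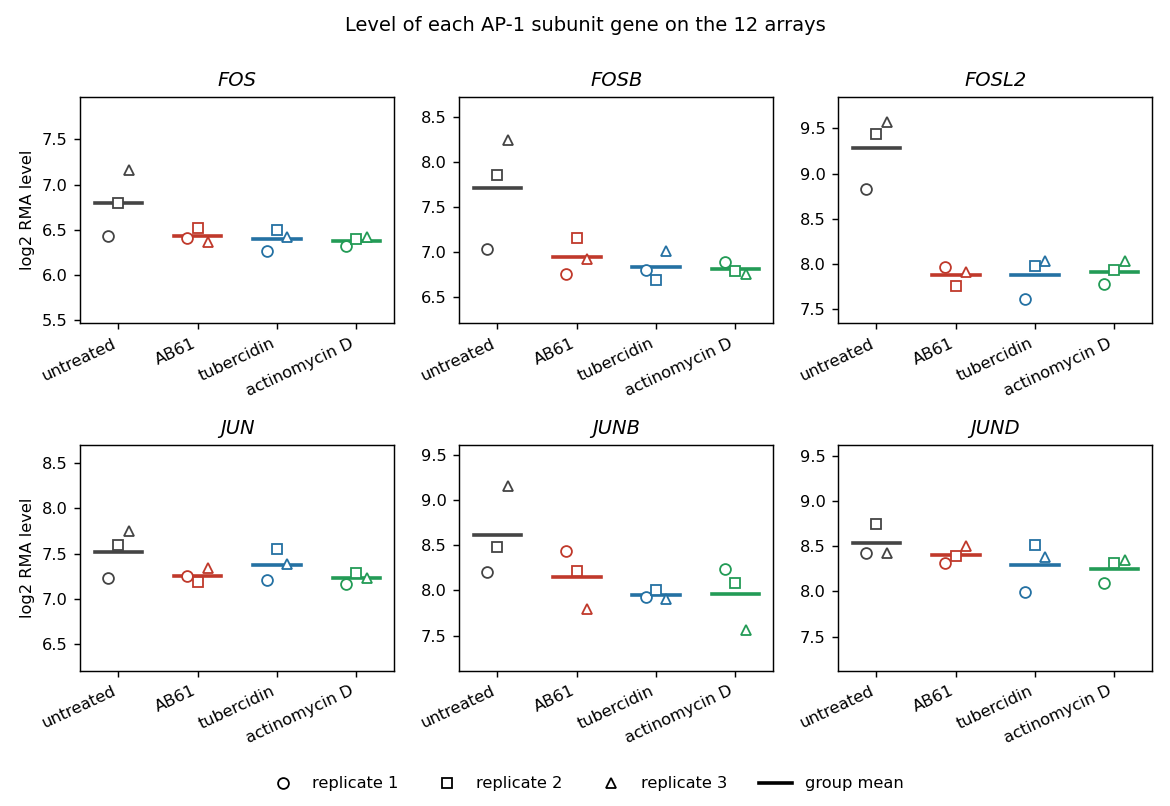
Log2 RMA level of each AP-1 subunit gene (vertical axis, the same span in every panel) on the 12 arrays, by group (horizontal axis); the marker shape gives the replicate number and the bar is the group mean. The FOSL2 control arrays, at 8.83 to 9.58, are all above the 9 treated arrays, at 7.62 to 8.03, as for 1.9% of all genes. For the other 5 genes at least 1 treated array reaches into the range of the controls.

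Of the JUN family none passed the test. JUN, the subunit that can bind DNA as a dimer with itself and the main target of the JNK kinases, lay at 7.23, 7.59 and 7.75 in control replicates 1, 2 and 3. Its treated levels lay between 7.16 and 7.55, and 3 of the 9 were below control replicate 1. The highest treated level, 7.55 on tubercidin replicate 2, came close to that of control replicate 2. JUN differences were -0.27 with AB61, -0.14 with tubercidin and -0.29 with actinomycin D (SE 0.13, limma adjusted p = 0.462, 0.923 and 0.511).

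JUNB, a weaker activator that in many settings restrains JUN, lay at 8.21, 8.48 and 9.16 in control replicates 1, 2 and 3. It lay at 8.43, 8.21 and 7.80 with AB61, at 7.93, 8.01 and 7.91 with tubercidin, and at 8.24, 8.09 and 7.57 with actinomycin D. The tubercidin arrays were all below the controls and within 0.10 of each other, whereas the AB61 arrays spanned 0.63 and the actinomycin D arrays 0.67, and both overlapped the controls. JUNB differences were -0.47 with AB61, -0.67 with tubercidin and -0.65 with actinomycin D (SE 0.23, limma adjusted p = 0.461, 0.362 and 0.374). Without control replicate 3 they were -0.20, -0.40 and -0.38, and without AB61 replicate 3 the AB61 difference was -0.29.

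JUND, a subunit known to be found also in resting cells, lay at 8.42, 8.75 and 8.42 in control replicates 1, 2 and 3. Its treated levels lay between 7.997 and 8.52, and 7 of the 9 were below all controls. The differences were -0.13 with AB61, -0.23 with tubercidin and -0.28 with actinomycin D (SE 0.14, limma adjusted p = 0.764, 0.761 and 0.600). The AB61 difference was 0.01 when arrays were centred on ribosomal protein genes, where the median of all genes was 0.18.

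Counted together, 1 of the 6 genes, FOSL2, passed at an adjusted p of 0.05 in each treatment. Over all genes tested, 0.169% passed with AB61, 0.0913% with tubercidin and 0.119% with actinomycin D. On the mean of the treatments 1 of 6 passed again, against 1.05% of all genes. At an unadjusted p of 0.05 the count was 3 with AB61, 4 with tubercidin and 5 with actinomycin D, against 12.1%, 8.8% and 9.39% of all genes. The fitted difference was below 0 for 6 of 6 in each treatment, as it was for 40.4% of all genes with AB61, 57.0% with tubercidin and 49.2% with actinomycin D. The 3 comparisons share the same control arrays, so their counts are not independent of each other.

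The median difference over the 6 genes was -0.42 with AB61, -0.54 with tubercidin and -0.54 with actinomycin D, beside medians over all genes of 0.04, -0.02 and 0.00. The treated arrays did not overlap the controls and lay below them for 1 gene with AB61 (FOSL2), 3 with tubercidin (FOSB, FOSL2 and JUNB) and 4 with actinomycin D (FOS, FOSB, FOSL2 and JUND). This held for 6.18%, 6.58% and 7.22% of all genes.

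**Figure D3:**
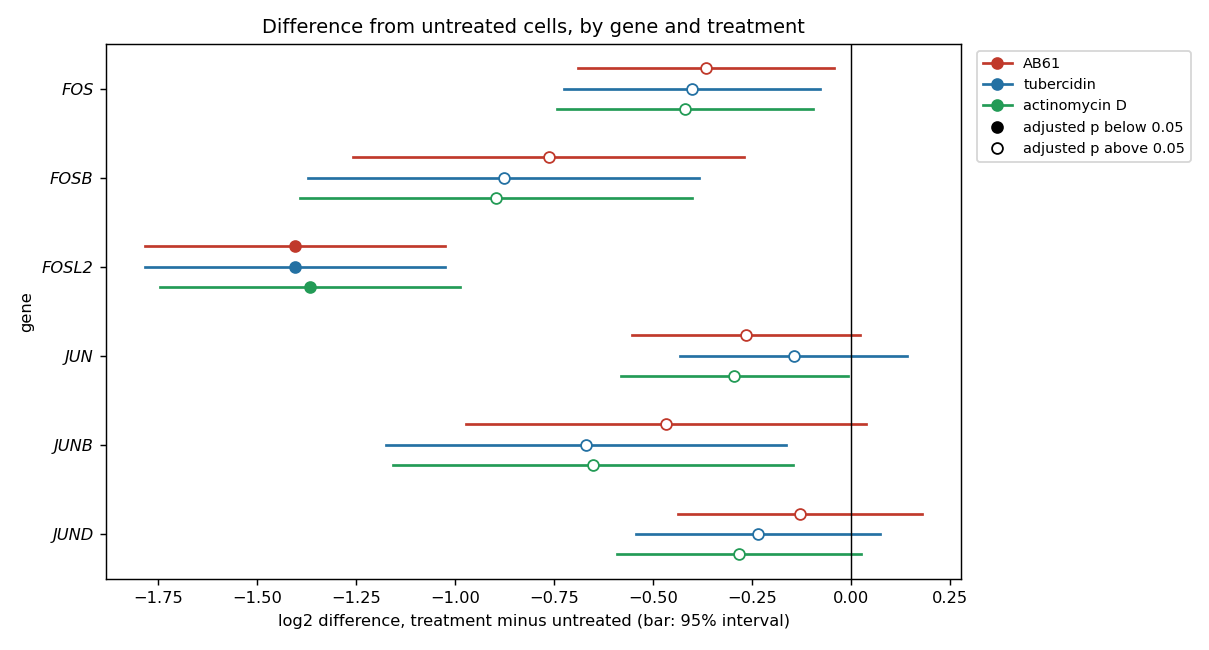
Fitted log2 difference from control (horizontal axis; points) with its 95% interval (bars) for each gene and treatment; filled points passed at an adjusted p of 0.05 and open points did not. The FOSL2 points lie at -1.40, -1.40 and -1.37 and are the only filled ones, and the points of all other genes lie between -0.90 and -0.13.

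The spread among the control arrays differed from that among the treated ones for several of the genes. The SD of FOS was 0.366 among the 3 controls and 0.0861 within the treated groups pooled, a ratio of 4.25. The ratio was 3.99 for FOSB (0.613 and 0.153), 2.42 for FOSL2 (0.396 and 0.164), 2.31 for JUN, 1.77 for JUNB and 1.03 for JUND. Over all genes the median SD was 0.13 in control and between 0.11 and 0.19 in the treated groups. A control SD as large as that of FOSB was found in 0.506% of all genes, one as large as that of FOSL2 in 3.11% and one as large as that of JUND in 27.6%.

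Control replicate 1 was the lowest of the control arrays for 6 of the 6 genes, against 28.2% of all genes. Control replicate 3 was the highest for 5, all but JUND, against 23.3% of all genes. The level on control replicate 3 exceeded that on control replicate 1 by at least 0.5 for those 5 genes, which held for 2.76% of all genes. The median of the 6 genes, each relative to its control mean, was -0.39, 0.11 and 0.33 on control replicates 1, 2 and 3, while that of all genes was 0.00, 0.04 and -0.05. On the treated arrays the median of the 6 genes lay between -0.67 and -0.33. Control replicate 1 thus lay below AB61 replicates 1 (-0.33) and 2 (-0.37) and above the other 7 treated arrays. The mean of the treatments minus control moved from -0.23 to -0.38 for JUN without control replicate 1 and to -0.12 without control replicate 3, and from -0.22 to -0.11 for JUND without control replicate 2. What set the control cultures apart from each other was not tested.

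**Figure D4:**
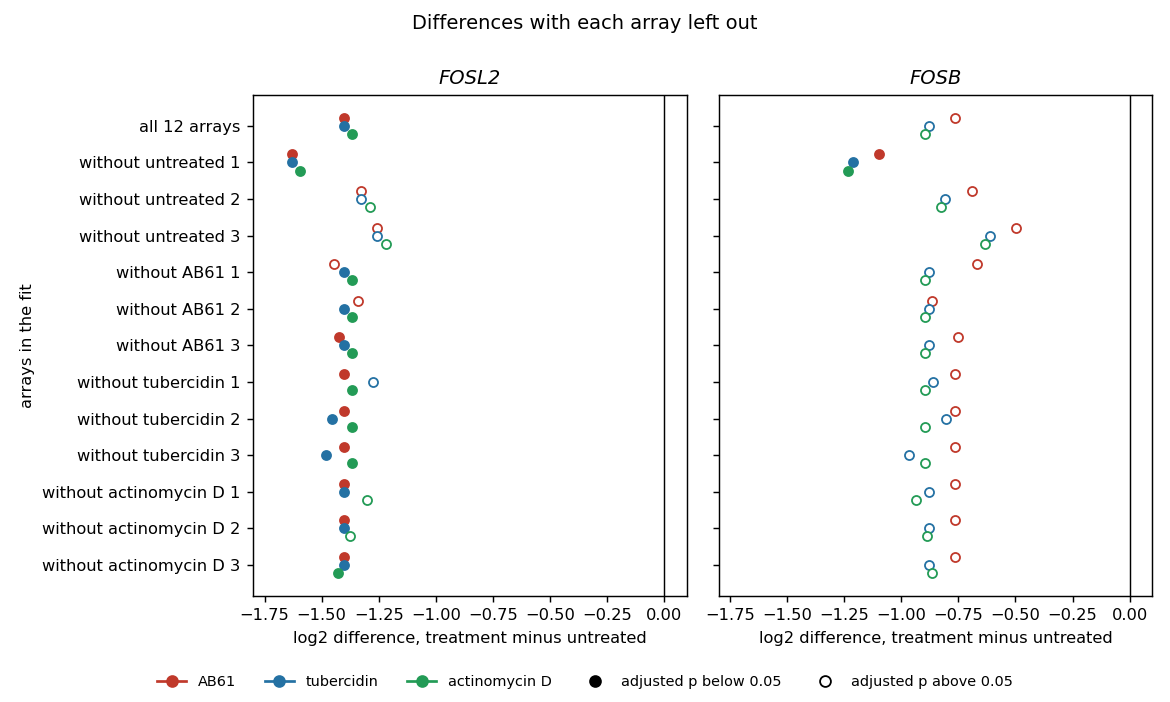
Fitted log2 difference from control (horizontal axis) of FOSL2 and FOSB with all 12 arrays and with each array left out in turn (rows); colours give the treatment, and filled points passed at an adjusted p of 0.05. FOSL2 moves between -1.63 and -1.22 and FOSB between -1.23 and -0.50, with the largest sizes of both in the row without control replicate 1, where FOSB passed in all 3 treatments.

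Arrays were also compared under the same replicate number, although these numbers were not taken as pairs for tubercidin and actinomycin D. FOSL2 was lower in each of the 9 same-number differences of a treated from a control array. Any matching of arrays gives this, since all treated arrays lay below all controls for FOSL2. The smallest of these differences, -0.87, was that of AB61 replicate 1 from control replicate 1, and the largest in size, -1.68, that of AB61 replicate 2 from control replicate 2. FOSB differed by -0.14 to -0.28 from control replicate 1 and by -0.70 to -1.49 from control replicates 2 and 3. JUNB differed by 0.22, -0.28 and 0.03 from control replicate 1 with AB61, tubercidin and actinomycin D, and by -1.36, -1.25 and -1.59 from control replicate 3.

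AB61 and tubercidin, which differ by the 2-thienyl group at position 7, were compared at the same multiple of the IC50 and at 3 h, although at different molar doses. FOSL2 differed between them by less than 0.01 on the log2 scale (AB61 minus tubercidin 0.0003, 95% interval -0.38 to 0.38). JUNB had the largest of the 6 differences, 0.20 (interval -0.30 to 0.71, limma adjusted p = 0.834). The others were 0.11 for FOSB, 0.11 for JUND, 0.04 for FOS and -0.12 for JUN, and no interval for any of the 6 genes reached outside -0.41 to 0.71.

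Actinomycin D, unrelated to both in structure, gave FOSL2 differences of -0.04 for AB61 minus actinomycin D (interval -0.42 to 0.34) and -0.04 for tubercidin minus actinomycin D (-0.42 to 0.34). Over the 3 pairs of compounds 0 of the 6 genes passed in limma at an adjusted p of 0.05 and 0 at an unadjusted p of 0.05. Of all genes 0% passed after adjustment in each pair, and 5.07%, 1.83% and 1.29% did so unadjusted. A p that misses the threshold does not show that the compounds act alike, and the intervals of the 6 genes left room for differences of up to 0.71 in size.

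The genes whose 12 levels ran closest to those of a subunit gene were found by the root mean square difference after each gene was centred on its own mean. This was done for the 3 subunit genes whose SD over the arrays was at least 0.3. For FOSL2 these were PFKFB4 (0.213), PFKFB3 (0.216) and CORO2A (0.237). PFKFB4 and PFKFB3 encode enzymes that make and break down fructose 2,6-bisphosphate, an activator of glycolysis, and CORO2A encodes an actin-binding coronin. Of the other subunit genes, FOSB was the 10th closest of all genes to FOSL2 (0.316), and FOS (0.447), JUNB (0.450), JUN (0.514) and JUND (0.542) were farther from it. In turn, FOSL2 was the 118th closest gene to FOSB. For FOSB the closest were PPP2R5B, a regulatory subunit of protein phosphatase 2A (0.111), LPCAT4, a lysophospholipid acyltransferase (0.155), and EGR3, an immediate early zinc finger factor (0.158). For JUNB they were the potassium channel gene KCNA3 (0.153), RIPOR1 (0.157) and the kinase gene CLK3 (0.159). Since 3 of the 12 arrays were controls, any gene lower in all treatments by a similar amount lies close by this measure.

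Genes that encode other partners of the FOS and JUN proteins were set beside them. Of 8 measured (FOSL1, ATF2, ATF3, ATF7, BATF, BATF2, BATF3 and JDP2), ATF3 was the only one to pass. ATF3, a stress-induced factor that pairs with JUN proteins, lay at 7.58, 7.94 and 8.08 in control replicates 1, 2 and 3 and between 6.69 and 7.33 on the 9 treated arrays. The treated arrays thus all lay below the controls, as for 1.9% of all genes. ATF3 differed by -0.85 with AB61 (SE 0.15, limma adjusted p = 0.0493), -0.68 with tubercidin (adjusted p = 0.129) and -0.97 with actinomycin D (adjusted p = 0.0345). The mean of the treatments was -0.83 (adjusted p = 0.0112). The call on that mean ended without control replicate 2 (adjusted p = 0.0900), without control replicate 3 (0.0859) or with arrays centred on ribosomal protein genes (0.0688). The calls in single treatments ended in 10 of 12 fits with 1 array left out for AB61 and in 9 of 12 for actinomycin D, and both also ended with arrays centred on their medians or on ribosomal protein genes, with quantile normalization repeated, with only the 2 groups compared and with every probe set tested (adjusted p 0.0523 to 0.219). The AB61 call of ATF3 ended as well with a variance trend (limma adjusted p = 0.0583, robust 0.0577) and with the mean of all probe sets of a gene (0.0511). It also ended with the replicate number as a block in the AB61 and control arrays alone (0.0706). FOSL1, which encodes the closest relative of FOSL2, stood at 0.29, 0.09 and 0.21 with AB61, tubercidin and actinomycin D (adjusted p = 0.565, 0.974 and 0.898). The median of the 8 partners on the mean of the treatments was -0.11.

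Of the genes that act upstream none passed in the fit of all 12 arrays. Among 11 of 15 listed transcription factors of the FOS and JUN promoters, MEF2D, a myocyte enhancer factor that binds the JUN promoter, stood at -0.54 on the mean of the treatments (limma adjusted p = 0.0916). ELK3, a ternary complex factor that binds beside serum response factor, stood at 0.43 (adjusted p = 0.0555), and its arrays lay above the controls in each treatment. On that mean ELK3 passed under 5 of 11 other settings and in 2 of 12 fits with 1 array left out, without AB61 replicate 3 or actinomycin D replicate 3 (lowest adjusted p of all 0.0208), and MEF2D passed without control replicate 1 (0.0474). Among 9 of 16 genes of the MAP kinase cascade that leads to AP-1, the members with the largest mean differences were the kinase genes RPS6KA3 (0.30, adjusted p = 0.457) and MAP2K6 (-0.18, adjusted p = 0.468). Among 8 of 8 genes for proteins that bind AU-rich elements, sequences that mark FOS-type mRNAs for decay or stability, they were ZFP36 (-0.46, adjusted p = 0.288) and ZFP36L1 (0.45, adjusted p = 0.363). The medians of the 3 lists on the mean of the treatments were 0.07, -0.05 and -0.05.

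Of 20 known AP-1 target genes, 19 were measured and 0 passed in any single treatment, whereas 1, PLAUR, was lower on the mean of the treatments (-0.69, limma adjusted p = 0.0332). PLAUR encodes the urokinase receptor and lay at 7.30, 7.87 and 7.98 in control replicates 1, 2 and 3 and between 6.79 and 7.17 on the treated arrays. Its call ended in 7 of 12 fits with 1 array left out: control replicate 2 or 3, AB61 replicate 2, any of the actinomycin D arrays or tubercidin replicate 1 (adjusted p 0.0511 to 0.181). It also ended with arrays centred on their medians (0.0513) or on ribosomal protein genes (0.150) and with every probe set tested (0.0752). Without control replicate 1, PLAUR passed with tubercidin (limma adjusted p = 0.0148) and actinomycin D (0.0152). CD69, an early activation antigen of T cells, stood at -1.05, -0.79 and -1.20 with AB61, tubercidin and actinomycin D (SE 0.48, adjusted p = 0.408, 0.759 and 0.436), and its arrays overlapped. CD69 lay at 8.52 on control replicate 1 and at 9.88 and 10.24 on control replicates 2 and 3. With the replicate number as a block, which pairs the AB61 and control arrays, and only these groups in the fit, CD69 passed with AB61 (adjusted p = 0.0478) and PLAUR did not (0.108), in a fit that called 2 genes higher and 9 lower. The same kind of fit for tubercidin and for actinomycin D, not taken as paired, called neither gene. Its limma adjusted p-values were 0.101 and 0.0744 for CD69, and 0.0700 and 0.115 for PLAUR. CD44, another of the targets, went the other way without passing, at 8.47 to 8.65 in control and 8.73 to 9.18 on the treated arrays. Treated and control arrays did not overlap, in either direction, for 4.53% of all genes. The fitted difference was below 0 for 3 of the 19 targets with AB61, 12 with tubercidin and 12 with actinomycin D. Over all genes this held for 40.4%, 57.0% and 49.2%. The median of the 19 targets on the mean of the treatments was 0.00.

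Other immediate early genes were set beside the AP-1 subunit genes as well. Of 14 listed, 11 were measured and 0 passed in any single treatment, and 1, NR4A1, was lower on the mean of the treatments (-1.84, limma adjusted p = 0.0186). NR4A1, an orphan nuclear receptor gene induced by the T-cell receptor, lay at 7.72, 8.57 and 9.79 in control replicates 1, 2 and 3 and between 6.55 and 7.13 on the treated arrays. Its call ended without control replicate 2 (adjusted p = 0.111) or control replicate 3 (0.0647), and with every probe set tested (0.0543). With AB61, NR4A1 did not pass with the replicate number as a block in the AB61 and control arrays alone (adjusted p = 0.0679). Without control replicate 1, NR4A1 passed with AB61 (limma adjusted p = 0.0246), tubercidin (0.0113) and actinomycin D (0.0112). EGR1, a zinc finger factor, lay at 7.49, 8.85 and 10.69 in control replicates 1, 2 and 3 and between 6.78 and 7.43 on the treated arrays, with -1.86 on the mean of the treatments (adjusted p = 0.0645). That mean was -2.62 and passed without control replicate 1 (adjusted p = 0.00581), and was -1.02 without control replicate 3 (0.150). Control replicate 1 was the lowest control array for 10 of these 11 genes and control replicate 3 the highest for 7. The median of the 11 genes on the mean of the treatments was -0.38, and that of the 6 AP-1 subunit genes -0.50.

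**Figure D5:**
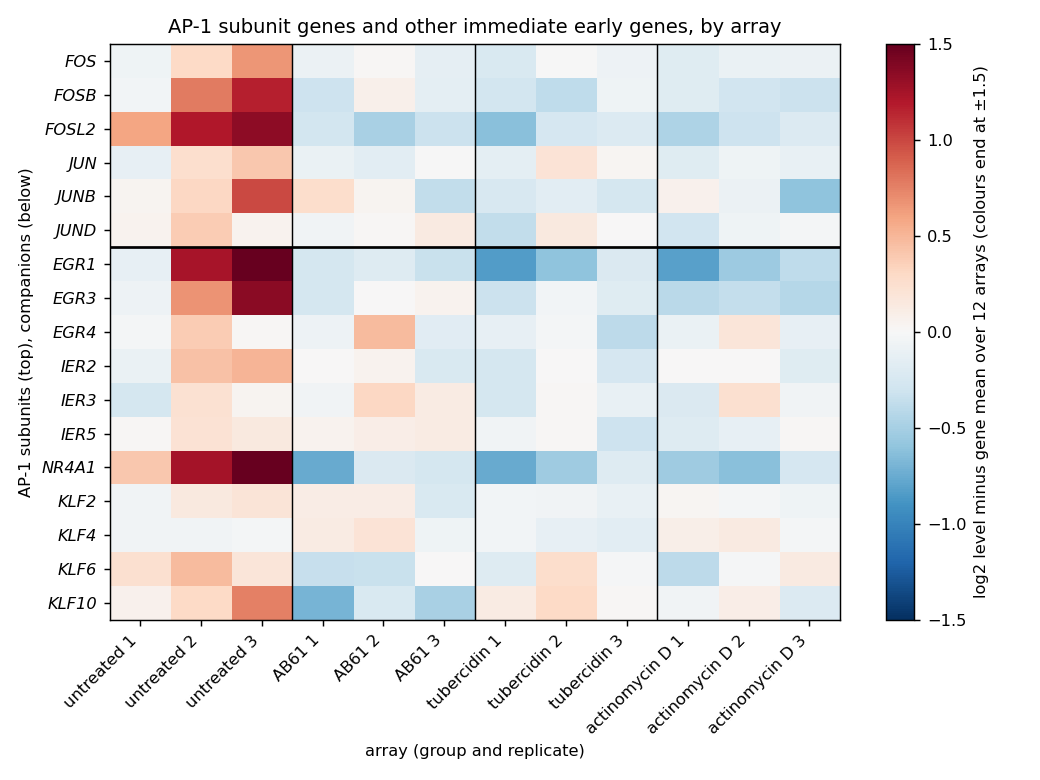
Log2 level of the 6 AP-1 subunit genes (top) and 11 other immediate early genes (bottom) on each array, relative to the gene's mean over the 12 arrays (red higher, blue lower; colours end at 1.5). FOSL2 is red on all 3 control arrays, as are NR4A1 and, more faintly, KLF6. FOSB, EGR1 and EGR3 are red on control replicates 2 and 3 and close to the treated arrays on control replicate 1.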

How the data were processed

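RNA of 12 CCRF-CEM cultures was measured on whole-transcript arrays, 3 in each of 4 groups taken from the labels. The deposited values are log2 RMA levels of 22011 probe sets, made by the authors with RMA and oligo and tested with limma, per the submitters' processing notes, which name no versions in what is used here. The authors' deposited tables also give group means, headed intensity but on the log2 scale, log2 fold changes and an unadjusted p-value. Because RMA brings the arrays to one distribution, a fall shared by the whole transcriptome would not show. Precision is limited by the number of arrays, with a median SE of 0.13 for a difference.

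Probe sets with 1 gene symbol (14432; 2408 had several and 5171 were not listed) were used, the brightest by mean level for genes with several (197), giving 14232 genes without a filter on dim ones. limma 3.58.1 in R 4.3.3 was fitted to all 12 arrays (8 residual degrees of freedom, 4.91 prior), with two-sided p-values adjusted by Benjamini-Hochberg over all genes of each contrast, threshold 0.05. Members and gene lists were chosen with earlier results of these data known. From each list, members past the threshold in any treatment, at most 4, or otherwise the 2 with the largest mean change, were named. PLAUR and NR4A1 passed on the mean of the treatments alone. Of the genes closest to a member, 3 each were named.

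Replicate numbers were checked as pairs by correlating deviations from group means. For replicates 1, 2 and 3 the values were 0.158, 0.355 and 0.268 between control and AB61. Between control and tubercidin they were 0.0858, 0.241 and 0.421, and between control and actinomycin D 0.204, 0.0464 and 0.305. Control and AB61 were taken as paired, and the other treatments, whose lowest values were lower, were not. The ranges overlap, so these values do not show that pairing differs between the treatments. The main fit had no block for the replicate number, for AB61 as for the other treatments. Alternatives covered scaling, dim genes, the variance model, array weights, arrays fitted, the block, the probe sets and each array left out. Separate variance weights for control and treated arrays were chosen after seeing the data. Promoters came from RefSeq, GRCh38.p14.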

Additional observations from a re-analysis of the deposited data

How the results depend on the processing

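Against control, 605 of the 606 values of the 6 AP-1 subunit genes over all settings lay below 0, the exception being JUND with AB61 (0.012) when arrays were centred on ribosomal protein genes. That centring moved the median of all genes from 0.04 to 0.18 with AB61, from -0.02 to 0.04 with tubercidin, from 0.00 to 0.11 with actinomycin D and from 0.01 to 0.11 on the mean of the treatments. The number of the 6 genes past the threshold was 0 instead of 1 with AB61 under ribosomal protein centring (FOSL2 -1.26), with only the 2 groups compared (-1.40) and with every probe set tested (-1.40), with tubercidin under only the 2 groups compared (-1.40), and with actinomycin D under these 3 settings (-1.26, -1.37 and -1.37) and when arrays were centred on their medians (-1.37, adjusted p = 0.0531). Among these settings the FOSL2 value itself moved by over 0.1 under ribosomal protein centring alone. With only the 2 groups compared and with every probe set tested it was the same to 2 decimals and its standard error or the number of genes tested differed. On the mean of the treatments the number was 2 (FOSL2 and FOSB) with dim genes left out, with the replicate block on all arrays (FOSB adjusted p = 0.0238) and with separate variance weights for control and treated arrays, the last chosen after seeing the data. In the same order these fits called 101 genes higher and 92 lower of 10674, 286 and 231 of 14232, and 140 and 109 of 14232. The main fit called 86 higher and 63 lower on that mean. The block changed no other call of the 6 genes, and with only the 2 groups compared and the block FOSL2 passed in each treatment (adjusted p 0.0275 to 0.0478). Among the genes named from the lists, the block on all arrays called PLAUR, NR4A1 and CD69 in each treatment and ATF3 with tubercidin (limma adjusted p = 0.0166). Of all genes that block called 87 higher and 106 lower with AB61, 66 and 50 with tubercidin, and 66 and 64 with actinomycin D. The main fit called 13 and 11, 8 and 5, and 9 and 8 in the same order. On the mean of the treatments the block also called CD69, MEF2D, ELK3 and EGR1, among 286 genes higher and 231 lower. Under array weights MAP2K6 passed with AB61 and ELK3 with actinomycin D. So did NR4A1 with AB61 (limma adjusted p = 0.0280) and actinomycin D (0.0191), and PLAUR with actinomycin D (0.0384). Of all genes array weights called 221 higher and 287 lower with AB61, and 298 higher and 241 lower with actinomycin D. With 1 array left out, the number of the 6 genes past the threshold ranged from 0 to 2 in each single treatment and from 1 to 3 on their mean. The highest counts came without control replicate 1. Of all genes that fit called 1 higher and 8 lower with AB61, 13 and 20 with tubercidin, 6 and 19 with actinomycin D, and 53 and 74 on the mean. On the mean it was 2 and 4 without control replicate 2, and 4 and 4 without control replicate 3. With 1 array left out, FOSL2 ranged from -1.63 to -1.26 with AB61 and with tubercidin, from -1.59 to -1.22 with actinomycin D and from -1.62 to -1.24 on the mean of the treatments.

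Between treatments, 0 of 450 values passed and 31 changed sign, all of small size. With array weights these were FOSB (-0.029) for AB61 minus tubercidin, FOSL2 (0.0024) and JUN (-0.016) for AB61 minus actinomycin D, and FOS (-0.014) and JUND (-0.025) for tubercidin minus actinomycin D. Under repeated quantile normalization FOS was -0.019 and under median centring FOSL2 -0.036 for AB61 minus tubercidin, and under ribosomal protein centring FOS was -0.025 and FOSB -0.023 for tubercidin minus actinomycin D. With 1 array left out, AB61 minus tubercidin ranged from -0.028 to 0.087 for FOS, from -0.13 to 0.078 for FOSL2 and from -0.043 to 0.22 for JUND. AB61 minus actinomycin D ranged from -0.10 to 0.026 for FOSL2, from -0.011 to 0.067 for JUN and from -0.013 to 0.36 for JUNB. Tubercidin minus actinomycin D ranged from -0.034 to 0.081 for FOS, from -0.070 to 0.090 for FOSB, from -0.11 to 0.094 for FOSL2, from -0.21 to 0.12 for JUNB and from -0.061 to 0.20 for JUND. Among the other genes, RPS6KA3 was -0.0021 with AB61 under array weights, and MAP2K6 with tubercidin ranged from -0.052 to 0.13 with 1 array left out. The cause of these shifts was not tested.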
